A study of Mus musculus with 24 samples.

Results

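The regulators of the mesenchymal switch and the genes they are known for controlling were followed through 22 CUT&RUN peak lists from a pair of mouse melanoma lines. The 9 genes were named by symbol: the zinc finger factors Snai1, Snai2, Zeb1 and Zeb2, the basic helix-loop-helix factors Twist1 and Twist2, the cadherins Cdh1 and Cdh2, and the intermediate filament gene Vim. All 9 were found among the 21900 protein-coding genes of the RefSeq mm10 table. A peak was taken as a gene-end peak if it touched the 1 kb on either side of an end of the gene, and as a locus peak if it lay within the gene plus 20 kb on each side. Of 197727 peaks in all lists, 313 lay in the 9 loci and 88 were gene-end peaks.

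CUT&RUN uses an antibody to bring a nuclease to a chromatin protein or mark, and the released DNA is sequenced. The Kmt2d mutant line 493 gave 12 peak lists and the Kmt2d WT line 971 gave 10, all from melanoma cells grown in DMEM/F12 with serum and antibiotics. Lists in both lines covered 9 targets: H3K4me3 (the mark of active promoters), Menin (which tethers the KMT2A and KMT2B methyltransferases), UTX (a demethylase in the KMT2D complex), TFAP2A (a neural crest transcription factor), and the SWI/SNF subunits ARID1A, SMARCC1, ARID2, PBRM1 and BRD9. TFAP2B and SOX10 (antibodies T and U) were used here in the mutant line alone, and KMT2D, a histone H3 lysine 4 methyltransferase that works mainly at enhancers, in the WT line alone. The 2 rabbit IgG samples, 1 per line, were not analysed here. The labels do not give the kind of Kmt2d mutation. Genotype and line of origin cannot be told apart, since each genotype is 1 line, and with a single library for every target in a line no test was possible and no difference between the lines has a replicate check.

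In epithelial cells the SNAI and ZEB factors bind E-box sequences in the E-cadherin gene (Cdh1) and repress it, with the TWIST factors acting towards the same end. The loss of E-cadherin and the gain of N-cadherin (Cdh2) and vimentin (Vim) mark the epithelial to mesenchymal transition. In the melanocyte lineage the family is split: ZEB2 and SNAI2 are known from differentiated pigment cells, and ZEB1 and TWIST1 from less differentiated melanoma.

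Depth at which the peaks were called, reconstructed from the authors' values, was higher in the mutant line for 8 of the 9 shared targets, with a mutant to WT ratio from 1.59 (UTX) to 2.36 (ARID2). The exception was SMARCC1 with a ratio of 0.394. Fold enrichment is the authors' ratio of signal to background at the summit and is placed here by its percentile. The percentile is the rank of the peak as a share of its own list, with tied peaks given their average rank. As reconstructed here, the ratio adds 1 fragment to both signal and background. Background was low, from 0.0351 fragments (mutant SMARCC1) to 0.219 (mutant Menin), so fold enrichment rises with depth. The fold enrichments given for the mutant and WT lists were not adjusted for depth. Of 7 melanocyte markers, Mitf and Pmel had H3K4me3 at a gene end in both lines, though the Pmel peak also covered an end of Rab5b, and Sox10 had it in the mutant line alone. Mlana, Tyr, Tyrp1 and Dct had no gene-end peak in any list. Of the other cell types' markers, H3K4me3 was at 3 of 6 fibroblast genes, 1 of 4 keratinocyte genes, 0 of 3 blood cell genes and 1 of 3 endothelial genes, the same numbers in both lines. Over all genes the share with gene-end H3K4me3 was 53.8% in the mutant list and 49.3% in the WT list.

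H3K4me3 marked a gene end of 8 of the 9 genes in the mutant list and 7 in the WT list, against 53.8% of all genes in the mutant list and 49.3% in the WT list. Snai1 was the gene with the mark in the mutant list alone, a pattern seen at 5.09% of all genes, and Cdh1 had none in either line. With a window of 2.5 kb the WT peak inside Snai1 counted too. Menin was at 6 genes in the mutant list and 7 in the WT list (37.9% and 31.6% of all genes), with Zeb1 in the WT list alone (1.92% of all genes). TFAP2A was at 6 genes in the mutant list (34% of all genes) and 4 in the WT list (24.6%). The added genes were Snai2 and Twist1, and 10.6% of all genes had TFAP2A at an end in the mutant list alone.

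ARID1A was at the ends of Snai1, Snai2 and Vim in both lines, 3 of 9 genes against 20.9% of all genes in the mutant list and 15.7% in the WT list. UTX was at Snai1, Snai2 and Vim in the mutant list (8.86% of all genes) and at Snai1 and Vim in the WT list (11.1%), which left Snai2 as mutant only (2.14% of all genes). SMARCC1 was at 2 genes in each line, Twist1 and Vim in the mutant list (0.598% of all genes) and Snai1 and Vim in the WT list (2.72%). Mutant-only SMARCC1, as at Twist1, was at 0.338% of all genes, and WT-only SMARCC1, as at Snai1, at 2.46%. ARID2 was at Vim alone in both lines (0.932% of all genes in the mutant list and 0.986% in the WT list), and PBRM1 and BRD9 were at none. Over all genes PBRM1 was at 2.03% in the mutant list and 1.9% in the WT list, and BRD9 at 0.0183% in the mutant list and 0.21% in the WT list. Of the targets profiled in the mutant line alone, TFAP2B was at 5 genes (21.9% of all genes), the SOX10 antibody U was at Snai1 and Vim (3.83%), and the SOX10 antibody T was at none (0.932%). KMT2D in the WT line was at Snai1 and Vim (10.1%). H3K4me3 and Menin thus stood at most of the 9 genes in both lines, and UTX, ARID1A, TFAP2A and KMT2D met at the ends of Snai1 and Vim.

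**Figure D1:**
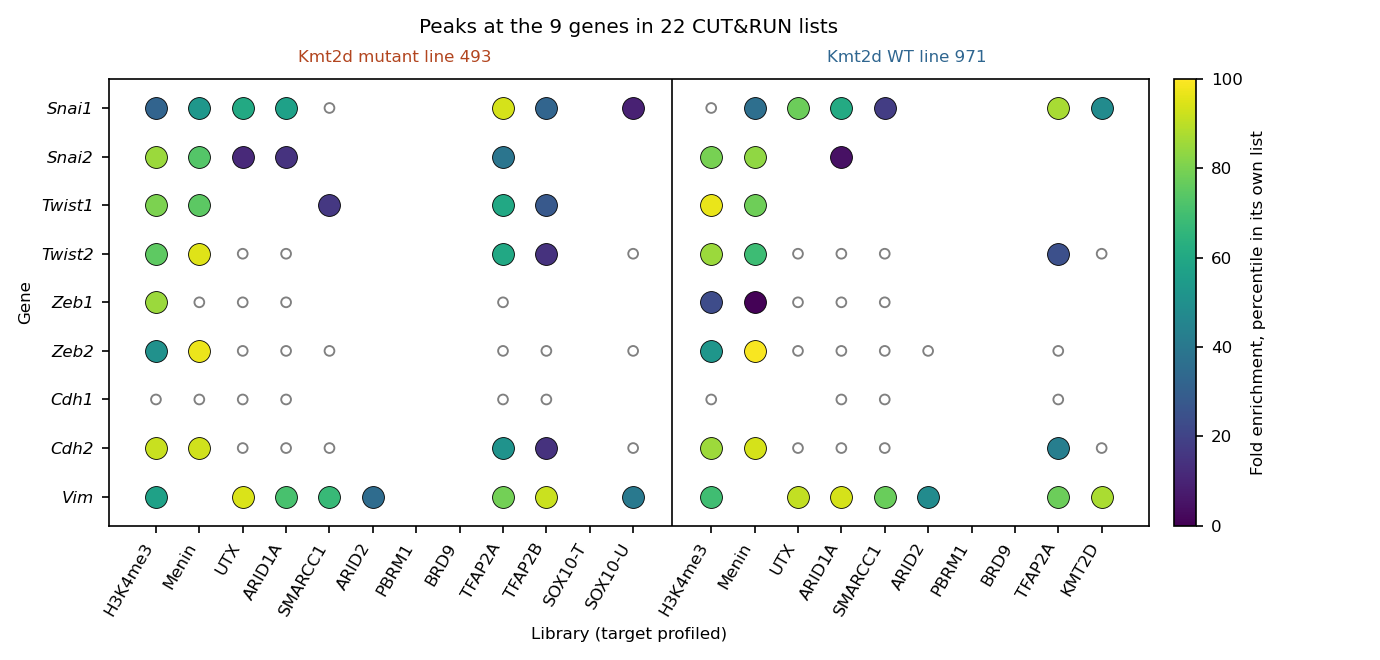
Peaks at the 9 genes (rows) in the 12 Kmt2d mutant lists and the 10 Kmt2d WT lists (columns). A filled circle is a peak within 1 kb of a gene end, coloured by the percentile of its fold enrichment in its own list, and a small open circle is a peak in the gene plus 20 kb with none at an end; the Vim row is filled in 15 of 22 lists and the Cdh1 row in 0.

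Snai1 encodes SNAIL, a direct repressor of E-cadherin. Its start (chr2:167538195-167542814, mm10, plus strand) carried an H3K4me3 peak of 2248 bp with a fold enrichment of 9.50 in the mutant list, which placed it at the 31.8 percentile. In the WT list the mark was a peak of 427 bp inside the gene with a fold enrichment of 4.48 (the 11.3 percentile), and it reached neither gene end. The mutant peak was kept when the lists were brought to equal depth. A stronger site lay past the far end of Snai1, at chr2:167543065-167544529, where 12 libraries had a peak, 6 in each line. TFAP2A led there with a fold enrichment of 36.8 in the mutant list (the 93.6 percentile) and 22.8 in the WT list (the 87.0 percentile). KMT2D had a fold enrichment of 8.80 at this site, and UTX had 8.67 in the mutant list and 17.3 in the WT list. ARID1A had 10.9 in the mutant list and 10.8 in the WT list, and SMARCC1 was called in the WT list alone. The Menin peaks counted for Snai1 were at this far site and not at the start. Farther out, 10.3 kb past the gene and beside an end of Gm11476, ARID1A reached 47.5 in the mutant list (the 98.4 percentile) and 27.2 in the WT list.

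Snai2 encodes SLUG, a neural crest factor needed in the melanocyte lineage. The locus held a single region, chr16:14704575-14708265 at the lower end of the gene, with peaks from 5 mutant and 3 WT libraries. H3K4me3 was strong in both, with a fold enrichment of 30.7 in the mutant list (the 84.8 percentile) and 18.5 in the WT list (the 79.5 percentile), and the peaks were of like length, 3263 bp in the mutant list and 3293 bp in the WT list. Menin had 2 peaks within it in each line. ARID1A was near the bottom of its list in both lines, at 5.22 in the mutant list and 4.30 in the WT list. TFAP2A (6.79, the 38.7 percentile) and UTX (4.35, the 11.6 percentile) were called in the mutant list and had no peak anywhere in the WT locus. The UTX call was lost at equal depth and the TFAP2A call was kept. No KMT2D peak lay within 20 kb of Snai2.

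Twist1 and Twist2 encode close relatives of the same factor family, and their loci differed. At Twist1 every peak lay near the gene, chr12:33957671-33959831. H3K4me3 covered the whole short gene with a peak of 4643 bp and a fold enrichment of 28.5 in the mutant list (the 80.3 percentile), and in the WT list with a main peak of 3597 bp at 25.7 (the 96.7 percentile). TFAP2A sat on the start in the mutant list with a fold enrichment of 10.2 (the 60.1 percentile), with a weaker peak of 6.79 about 1.56 kb before the start, and neither was in the WT list. TFAP2B overlapped the start peak at 5.33. A weak SMARCC1 peak of 2.90 was also mutant only. UTX, ARID1A and KMT2D had no peak in the Twist1 locus in any list.

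Twist2 carried the same promoter marks and in addition a pair of sites inside the gene that Twist1 lacked. At the start, H3K4me3 had a fold enrichment of 26.3 in the mutant list and 20.1 in the WT list, and TFAP2A had 10.2 in the mutant list and 6.01 in the WT list. The first inner site, chr1:91816277-91816997, lay 15.3 kb from the start beside an end of Gm46117 and was called in 10 libraries, 5 in each line. ARID1A was at the 99.2 percentile there in the mutant list (56.8) and at the 99.1 percentile in the WT list (41.7). UTX had 28.7 in the mutant list and 45.6 in the WT list, KMT2D had 36.6 in the WT list, and TFAP2A had 24.6 in the mutant list and 15.4 in the WT list. The second, chr1:91823481-91823858, 22.2 kb from the start, was called in 9 libraries with TFAP2A at 20.4 in the mutant list and 13.9 in the WT list and KMT2D at 11.1. H3K4me3 and Menin were called at neither inner site.

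**Figure D2:**
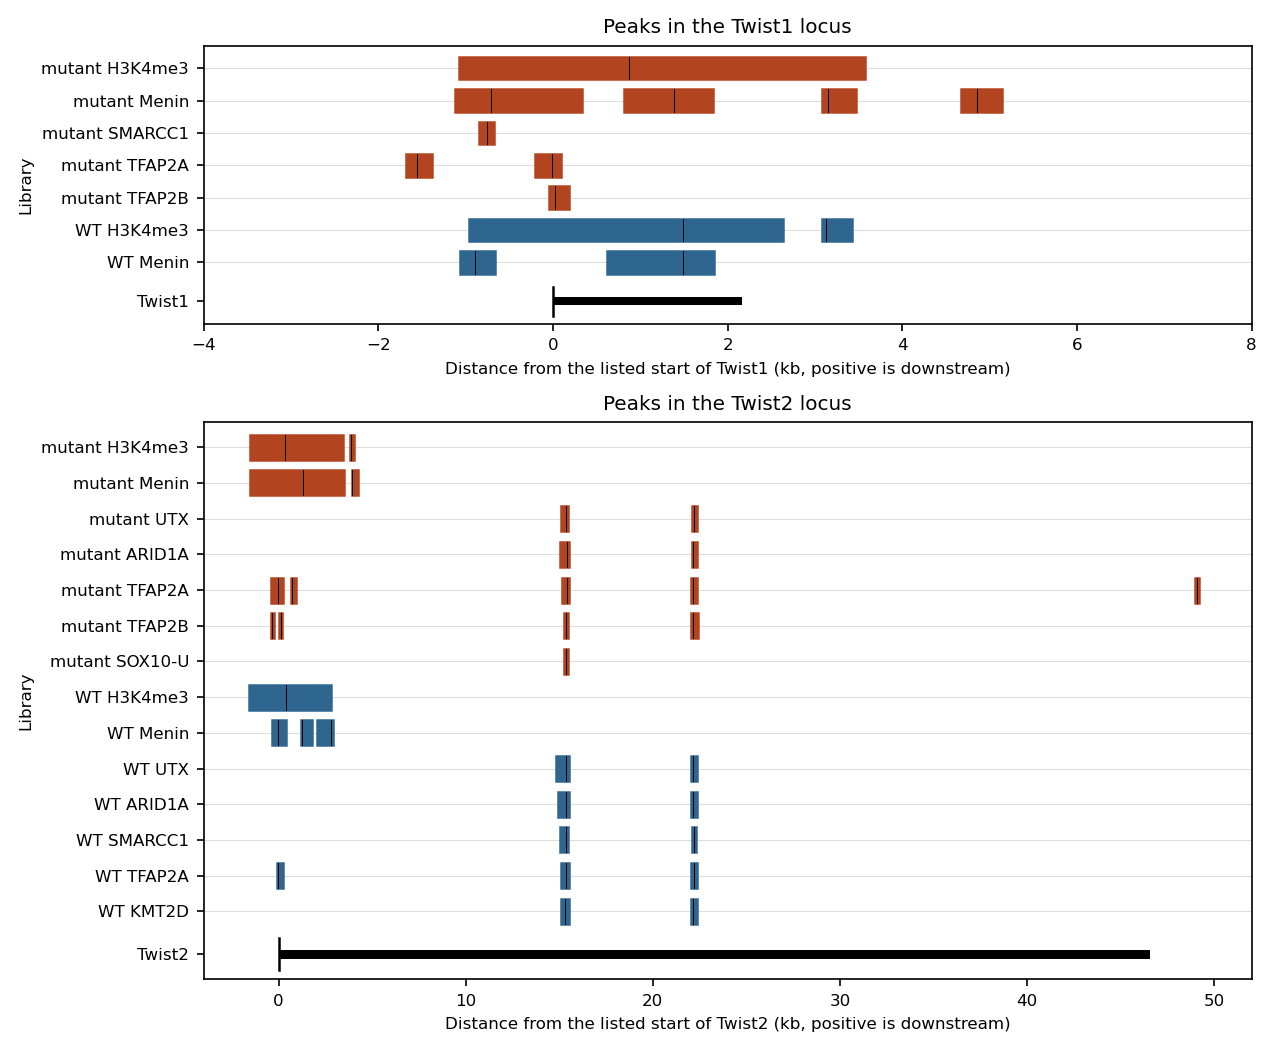
Peaks (bars, with the summit as a black line) of each library in the Twist1 and Twist2 loci by distance from the listed start in kb, mutant libraries in red above WT libraries in blue, and the gene in black. Twist1 peaks stay beside the gene, and Twist2 has sites 15.3 and 22.2 kb inside it that carry UTX, ARID1A and TFAP2A in both lines.

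Zeb1 and Zeb2 are long genes, 184142 and 133931 bp. At the lower end of Zeb1 (chr18:5591327-5775468) H3K4me3 spread over a peak of 4238 bp with a fold enrichment of 30.7 in the mutant list (the 84.8 percentile), and in the WT list over a short peak of 6.07 that touched the gene-end window and a longer one of 3273 bp with 11.6 (the 49.9 percentile). An end of Gm10125 lies in the same place. Menin was inside this domain in both lines, with a top value of 14.5 in the mutant list and 11.3 in the WT list. The gene-end Menin call of Zeb1 in the WT list was a separate peak of 3.73, at the 0.582 percentile, so it was among the weakest of that list. It was lost at a −log10 q of at least 5. It was also lost with a window of 500 bp, and with one of 2.5 kb the mutant list had a Menin call too. TFAP2A had a peak of 5.09 inside the domain in the mutant list and none in the WT locus, and with the window at 2.5 kb it counted as a gene-end peak. A remodeller site 149 kb into the gene, chr18:5740208-5740708, had ARID1A at 14.5 in the mutant list and 10.3 in the WT list, with UTX and SMARCC1 in the WT list alone. No KMT2D, TFAP2B or SOX10 peak lay in the Zeb1 locus.

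Zeb2 (chr2:44983512-45117442, minus strand) held the most peaks of the 9 genes, 36 of the shared targets in each line. H3K4me3 and Menin formed a broad domain over its 4 listed starts, which lie within 7.16 kb. An end of Zeb2os also lies in this domain. The locus had 14254 bp under H3K4me3 in the mutant list and 18155 bp in the WT list, more than 99.8% of genes with gene-end H3K4me3 in the mutant list and 99.96% in the WT list. Menin covered 14210 bp in the mutant list and 22213 bp in the WT list, more than 99.6% of genes with gene-end Menin in the mutant list and 99.97% in the WT list. The mutant list split its H3K4me3 into 13 peaks and the WT list into 7, and no other gene had as many as 13 in the mutant list. With a −log10 q of at least 5 the H3K4me3 peaks numbered 11 in the mutant list and 3 in the WT list. Peak number and length differed, as these 3 WT peaks were 2054, 4569 and 6538 bp long and the longest mutant peak was 3496 bp. Among the WT peaks lost was one of 4059 bp with a fold enrichment of 3.20 (the 0.644 percentile), which is part of the 18155 bp. Menin had 13 peaks in the mutant list and 19 in the WT list, a number that 1 other gene reached in the WT list. These ranks by covered length and by peak number were not adjusted for the length of the locus, which is 174 kb for Zeb2. Menin was called in all 12 regions of the locus found in WT alone. These ran from 19.2 to 91.2 kb into the gene, with Menin fold enrichments from 3.73 to 9.55. The regions at 19.2 and 28.2 kb also had an H3K4me3 peak of the WT list. With a −log10 q of at least 5 the Menin counts were 9 in the mutant list and 11 in the WT list, so many of the WT peaks were weak, and at equal depth they were 10 in the mutant list and 19 in the WT list.

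The TFAP2 site of Zeb2 was not at the outermost start but at the innermost listed one, 7.16 kb downstream. An end of Zeb2os lies within 1 kb of the same site. TFAP2A had a fold enrichment of 36.1 there in the mutant list (the 93.3 percentile) and 12.1 in the WT list (the 65.6 percentile), and TFAP2B had 17.6 in the mutant list (the 86.6 percentile). Because this start is not an end of the annotated gene, Zeb2 is not among the genes counted above for TFAP2A. The SOX10 antibody U had a peak of 6.35 in a separate H3K4me3 and Menin region centred 16.7 kb into the gene, and one of 4.53 at 99.9 kb. No KMT2D peak lay in the Zeb2 locus. Past the far end, 14.1 kb out, ARID1A had 31.3 in the mutant list (the 94.1 percentile) and 11.7 in the WT list, with SMARCC1 at 9.43 in the mutant list (the 94.4 percentile) and 17.0 in the WT list.

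**Figure D3:**
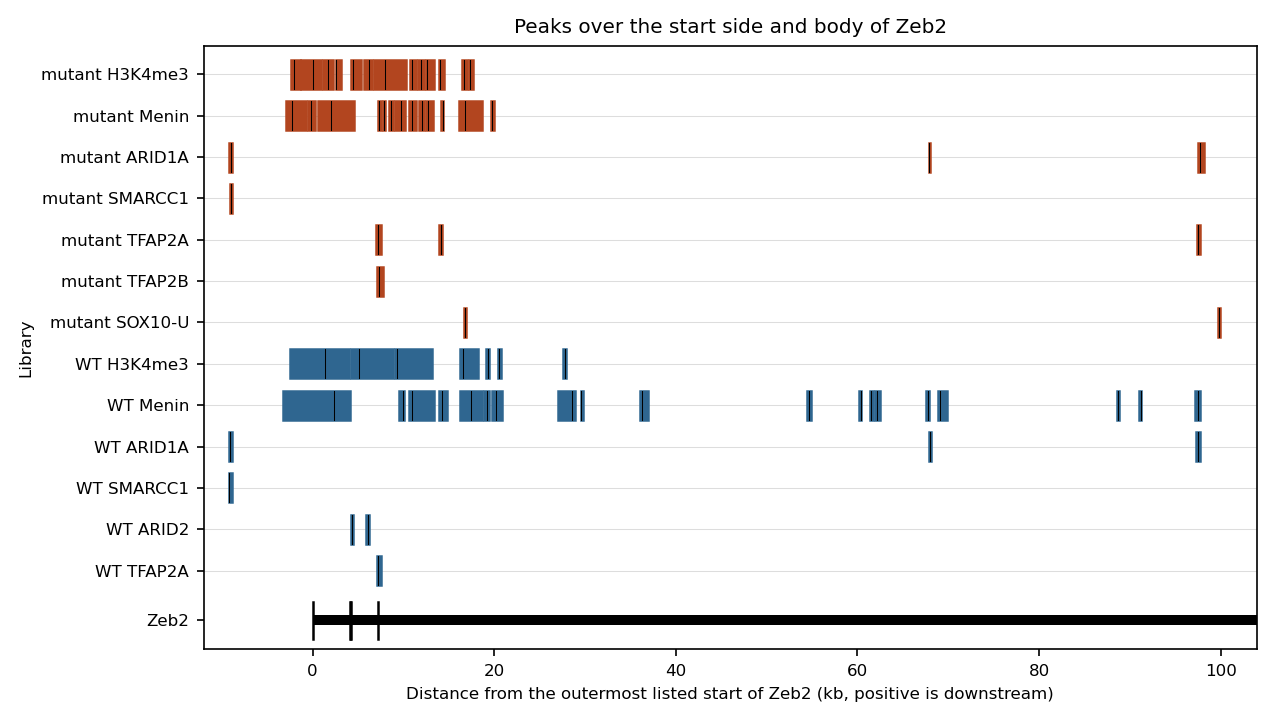
Peaks of each library over the start side and body of Zeb2 by distance from the outermost listed start in kb, mutant libraries in red above WT libraries in blue; tall ticks on the gene are the listed starts. Menin peaks of the WT list continue to 97.5 kb, and TFAP2A and TFAP2B meet at the innermost start.

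Cdh1 encodes E-cadherin, the adhesion molecule that ties melanocytes to keratinocytes and is the classical target of the factors above. It was the 1 gene of the 9 with no gene-end peak in any of the 22 lists, a state shared by 43.2% of all genes. The H3K4me3 peaks in the locus, 9.68 in the mutant list and 8.61 in the WT list, lay 13.1 kb past the gene at an end of Tango6. The gene body was not empty. At chr8:106619449-106620060, 16.3 kb into the gene from its lower end, TFAP2A had a fold enrichment of 31.4 in the mutant list (the 91.3 percentile) and 7.78 in the WT list (the 41.2 percentile). ARID1A overlapped it at 26.3 in the mutant list (the 90.9 percentile) and 11.0 in the WT list (the 61.1 percentile), and TFAP2B (7.11) and UTX (6.96) did so in the mutant line. A site at 23.0 kb had ARID1A in both lines, 8.63 in the mutant list and 6.56 in the WT list. Sites at 20.3 and 52.9 kb, with ARID1A and SMARCC1 and at the first also TFAP2A, were called in WT lists alone. Of the genes without gene-end H3K4me3 in either line, 20.5% had TFAP2A in the locus in both lines, as Cdh1 did. KMT2D and SOX10 had no peak there.

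Cdh2 encodes N-cadherin. Its upper end (chr18:16588877-16809246) carried H3K4me3 with a fold enrichment of 35.0 in the mutant list (the 91.6 percentile) and 20.2 in the WT list (the 85.4 percentile), with Menin at 14.5 in the mutant list and 14.2 in the WT list. TFAP2A was at the same end with 8.48 in the mutant list and 8.14 in the WT list, and TFAP2B with 4.44. Within the gene, the site chr18:16713223-16714438 was called in 2 mutant and 6 WT libraries, with ARID1A at 13.9 in the mutant list and 12.2 in the WT list, the SOX10 antibody U at 9.33 in the mutant list and KMT2D at 5.80 in the WT list. UTX, SMARCC1, Menin and H3K4me3 were called at that site in WT alone. The site chr18:16740644-16741172 had ARID1A at 21.4 in the mutant list and 20.7 in the WT list, UTX at 6.09 in the mutant list and 13.0 in the WT list, and KMT2D at 6.50. The site chr18:16744896-16745491 was called in 4 mutant and 5 WT libraries, with ARID1A at 24.9 in the mutant list and 13.1 in the WT list. TFAP2A, SMARCC1 and Menin were also called at this site in both lines, and UTX in WT alone. The lower of the inner sites, 53.0 kb from the lower end, was called in 6 mutant and 2 WT libraries, and TFAP2A and ARID1A were the targets found there in both lines. Cdh2 thus had a marked end and Cdh1 had none, and both held TFAP2A and ARID1A inside the gene.

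Vim encodes vimentin, the filament protein of mesenchymal cells, and had the densest locus, with 25 peaks of the shared targets in the mutant lists and 28 in the WT lists. Per 100 kb this was 51.5 in the mutant lists and 57.7 in the WT lists, against a median over all genes of 6.002 in the mutant lists and 4.83 in the WT lists. A gene-end peak was present in 15 of 22 lists, 8 mutant and 7 WT. H3K4me3 covered the start and most of the gene in the mutant list, in a main peak of 6991 bp at 19.2-fold enrichment. In the WT list the main peak, of 4837 bp with 15.8, began just after the start. Menin had no peak in the locus in either line. Of the 10668 genes with gene-end H3K4me3 in both lines, 10.7% likewise had none within 20 kb.

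Just before the Vim start TFAP2A had a fold enrichment of 17.3 in the mutant list and 16.1 in the WT list, and TFAP2B had 22.4 (the 92.0 percentile). In the same place UTX had 21.9 in the mutant list and 29.0 in the WT list, ARID1A had 14.3 in the mutant list and 25.1 in the WT list, and KMT2D had 22.4 (the 87.2 percentile). A pair of upstream sites lay beside an end of Gm9875. The site at chr2:13557083-13558015, 16.8 kb before the start, was called in 11 libraries, and the site at chr2:13558371-13559142, 15.6 kb before the start, in 10. UTX was strongest at the second, with 38.3 in the mutant list (the 98.7 percentile) and 66.0 in the WT list (the 98.4 percentile), and KMT2D had 30.6 at the first and 39.8 at the second. The remaining KMT2D site, 9.50 kb from the start and past the far end, had 10.5, with UTX and ARID1A in both lines. The SOX10 antibody U had 5 peaks in the locus, a number that 0.438% of all genes reached.

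The PBAF subunit ARID2 had 2 peaks in the Vim locus in the mutant list and 8 in the WT list. In the WT list 794 genes had any ARID2 peak in the locus, and no other gene had as many as 8. Fold enrichments were 5.33 and 5.92 in the mutant list, both within the gene, and from 4.17 to 7.72 in the WT list, at the upstream site, at the start, along the gene and past its far end. The mutant ARID2 list is the shorter of the pair, 456 peaks against 689 in the WT list, although its depth is the higher. At a −log10 q of at least 5 the counts were 0 in the mutant list and 3 in the WT list, and with lists of equal length they were 2 in the mutant list and 4 in the WT list. At equal depth they were 0 in the mutant list and 8 in the WT list.

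**Figure D4:**
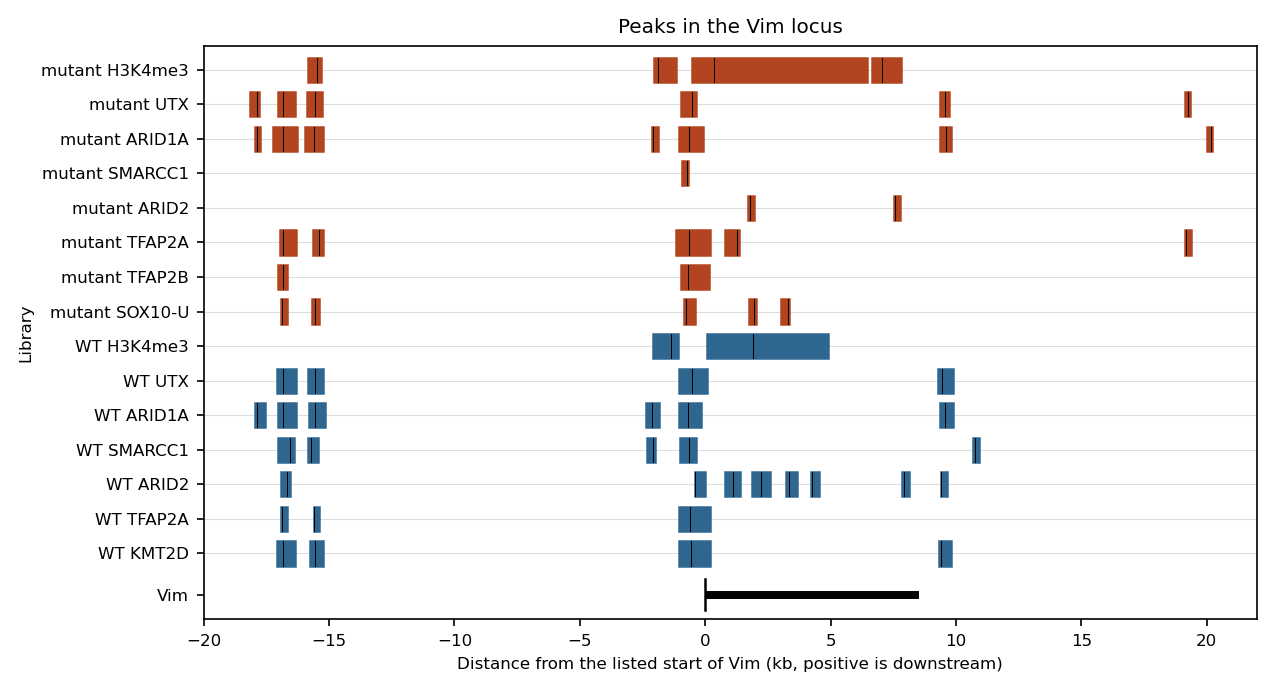
Peaks of each library in the Vim locus by distance from the listed start in kb, mutant libraries in red above WT libraries in blue, and the gene in black. Peaks of UTX, ARID1A and TFAP2A in both lines, and of KMT2D in the WT line, stack 16.8 and 15.6 kb before the start and just before it.

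The sequences before the starts are shown because TFAP2A placement there separated the genes. Each is the 250 bases before a listed start, from the RefSeq promoter table (GRCm38.p6, the assembly of mm10), 5′ to 3′ on the strand of the gene. Entries were found for 5 of the 9 genes, 8 starts in all. Capitals mark GCCNNNGGC, the TFAP2 consensus, which reads the same on both strands, in the first 4, and the E-box CAGGTG or CACCTG of the SNAI and ZEB factors in the last. At Vim (chr2:13574061-13574310, plus strand), Twist2 (chr1:91801211-91801460, plus strand), Twist1 (chr12:33957421-33957670, plus strand), the innermost Zeb2 start (chr2:45110278-45110527, minus strand) and Snai1 (chr2:167537945-167538194, plus strand) they read:
Vim: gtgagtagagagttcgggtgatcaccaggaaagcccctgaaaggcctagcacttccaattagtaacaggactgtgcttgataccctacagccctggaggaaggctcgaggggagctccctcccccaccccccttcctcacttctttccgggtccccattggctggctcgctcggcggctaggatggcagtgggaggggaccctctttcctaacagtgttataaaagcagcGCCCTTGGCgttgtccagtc
Twist2: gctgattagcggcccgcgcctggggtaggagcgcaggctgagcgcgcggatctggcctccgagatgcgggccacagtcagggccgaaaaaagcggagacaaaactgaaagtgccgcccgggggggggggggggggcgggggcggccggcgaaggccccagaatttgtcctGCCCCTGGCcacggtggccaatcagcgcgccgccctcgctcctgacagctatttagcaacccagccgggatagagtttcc
Twist1: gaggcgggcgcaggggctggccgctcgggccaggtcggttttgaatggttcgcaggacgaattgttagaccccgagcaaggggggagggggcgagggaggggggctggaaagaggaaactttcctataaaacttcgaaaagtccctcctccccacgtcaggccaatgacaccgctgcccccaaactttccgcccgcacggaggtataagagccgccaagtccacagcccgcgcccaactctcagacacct
Zeb2, innermost start: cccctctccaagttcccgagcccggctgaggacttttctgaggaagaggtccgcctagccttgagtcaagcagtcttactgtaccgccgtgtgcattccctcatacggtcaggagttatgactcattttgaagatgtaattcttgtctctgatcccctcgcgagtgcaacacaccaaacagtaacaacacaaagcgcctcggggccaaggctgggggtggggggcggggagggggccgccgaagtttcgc
Snai1: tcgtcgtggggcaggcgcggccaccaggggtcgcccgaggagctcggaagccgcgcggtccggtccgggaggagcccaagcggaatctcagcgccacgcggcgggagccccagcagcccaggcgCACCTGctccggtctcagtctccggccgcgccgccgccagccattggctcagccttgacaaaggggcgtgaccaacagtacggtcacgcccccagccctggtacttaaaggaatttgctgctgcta

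The TFAP2 letters were found in 16.3% of 21238 promoter windows of this length and the E-box letters in 16.9%. Vim and Twist2, which had a TFAP2A peak over the window in both lines, each held 1 TFAP2 match. It began 20 bases before the start at Vim and 80 bases before it at Twist2. The TFAP2A summits at Vim lay 663 bp before the start in the mutant list and 601 bp in the WT list, outside the window. At Twist2 they lay 19 bp before the start in the mutant list and 8 bp in the WT list, inside it. Twist1 had a TFAP2A peak over the window in the mutant list, and the innermost Zeb2 start had one in both lists. Neither window held these letters. The Twist1 summit lay 10 bp before the start. The summits at the innermost Zeb2 start lay downstream of that start, outside the window. The windows of the other 2 inner Zeb2 starts, 4.16 and 4.19 kb downstream, overlap each other and held the same 1 TFAP2 match. It began 81 bases before the first of these starts and 107 bases before the second. Neither window had a TFAP2A peak over it, and the window of the outermost start had no match and no TFAP2A peak. Snai1 held 1 TFAP2 match 87 bases before the start and 1 E-box 126 bases before it, which do not overlap, and had no TFAP2A peak over the window. A match is a string of letters and not a bound site.

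Counted over the 9 loci, the shared targets had 138 peaks in the mutant lists and 142 in the WT lists. Without SMARCC1 and BRD9 the order turned, with 132 in the mutant lists and 123 in the WT lists. The targets did not move alike. TFAP2A had 25 peaks in the mutant lists and 13 in the WT lists, H3K4me3 had 28 in the mutant list and 21 in the WT list, and UTX had 16 in the mutant list and 13 in the WT list. ARID1A had 27 in each line. Menin had 34 in the mutant list and 39 in the WT list, SMARCC1 had 6 in the mutant list and 19 in the WT list, and ARID2 had 2 in the mutant list and 10 in the WT list. Over the whole lists, the mutant to WT ratio of peak numbers was 1.59 for TFAP2A, 1.12 for H3K4me3 and 0.999 for UTX. It was 1.14 for ARID1A, 1.24 for Menin, 0.253 for SMARCC1 and 0.662 for ARID2. The SMARCC1 difference goes with a mutant library of 0.394 times the WT depth, and the TFAP2A difference with one of 1.81 times, and the part of depth in these counts was not tested beyond the equal-depth counts, 110 in the mutant lists and 135 in the WT lists over all shared targets.

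**Figure D5:**
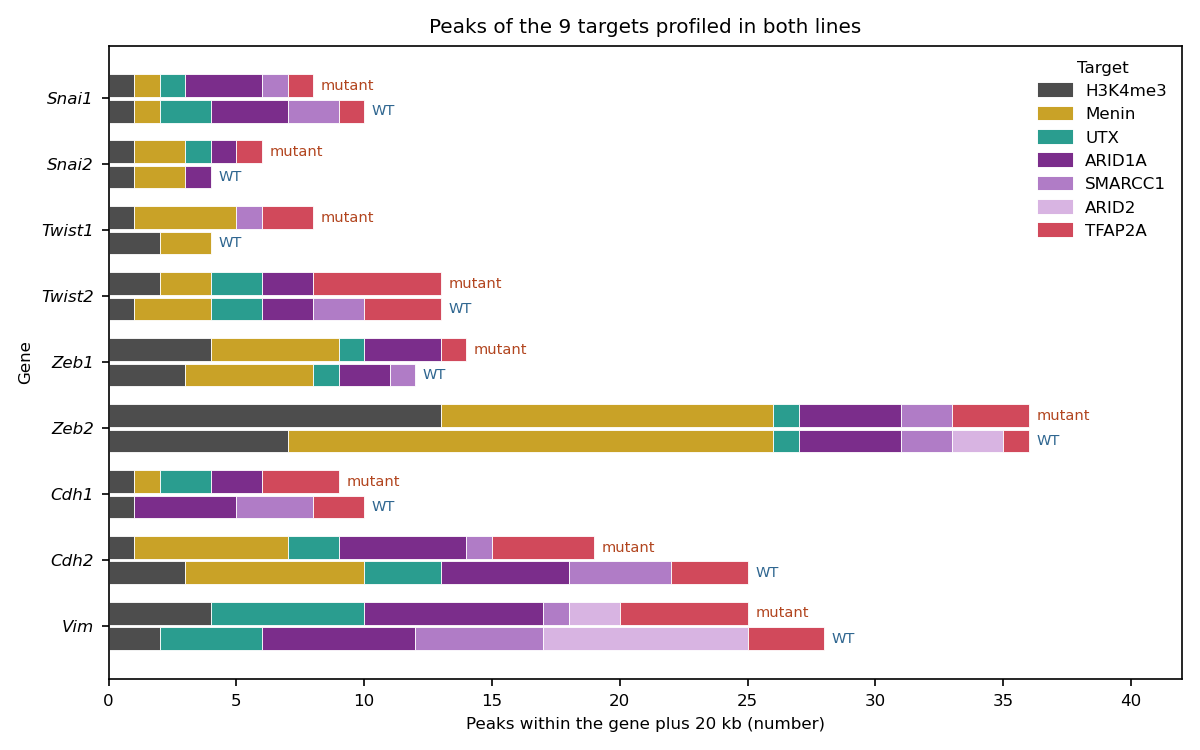
Number of peaks of the targets profiled in both lines within each gene plus 20 kb, the mutant line above the WT line, with bars divided by target (PBRM1 and BRD9 have 0). The totals of Zeb2 are 36 in each line, and Vim follows with 25 in the mutant line and 28 in the WT line.

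Of the 138 mutant peaks, 96 (69.6%, Wilson 95% interval 61.4 to 76.6%, counting error only) overlapped a WT peak of the same target by at least 1 bp, against 62.9% over the whole mutant lists. Of the 142 WT peaks, 89 (62.7%, interval 54.5 to 70.2%) overlapped a mutant peak, against 67.4% over the whole WT lists. ARID1A sites were shared for 24 of 27 peaks in the mutant list and 23 of 27 in the WT list, against 62.5% over the whole mutant list and 70.9% over the whole WT list. TFAP2A was one-sided: 12 of 25 mutant peaks overlapped a WT peak, and 12 of 13 WT peaks overlapped a mutant peak, while the whole lists gave 52.6% for the mutant and 82.5% for WT. For Menin, 23 of 34 mutant peaks and 22 of 39 WT peaks were shared, against 62.7% over the whole mutant list and 77.0% over the whole WT list, and 13 of the 17 unshared WT peaks were in the Zeb2 locus. Merged over all 22 lists, the peaks made 71 regions, of which 33 were called in both lines, 18 in the mutant line alone and 20 in the WT line alone. Of the regions called in WT alone, 12 were in Zeb2, and of those called in the mutant alone, 7 were in Zeb1.

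The 10 KMT2D peaks of the WT line were at Vim (4), Snai1 (2), Twist2 (2) and Cdh2 (2). All 10 overlapped UTX and ARID1A in the WT line and 9 overlapped SMARCC1, against 88.3%, 87.7% and 48.0% of all KMT2D peaks. In the mutant line, 8 of these 10 sites held a UTX peak and 10 an ARID1A peak, against 60.6% and 84.3% over the list. H3K4me3 of the WT line overlapped 1 of the 10, against 34.7% over the list. All 12 TFAP2B peaks overlapped TFAP2A in the mutant line (94.0% over the list). Of the 11 peaks of the SOX10 antibody U, 6 lay on a KMT2D site of the WT line, against 27.9% over the list, and these were at Snai1, Twist2, Cdh2 and Vim.

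In 6 lists of related genes, 60 genes in all, H3K4me3 was at a gene end of 40 genes in the mutant list and 33 in the WT list. Of 13 epithelial genes, 5 were marked in the mutant list and 1 in the WT list, against 53.8% of all genes in the mutant list and 49.3% in the WT list. The 4 mutant-only ones, a pattern of 5.09% of all genes, were Ocln (occludin, 6.83), Esrp1 (a splicing factor of epithelial cells, 5.02) and the transcription factors Ovol1 (6.73) and Ovol2 (6.07), none above the 21.4 percentile of the mutant list and none with gene-end Menin or TFAP2A. Epcam, Krt8, Krt18 and Grhl2 had no gene-end peak in any list. Of 9 other cadherins, Cdh19, a cadherin of neural crest and Schwann cells, was the 1 with a gene-end peak, H3K4me3 at 14.6 and Menin at 12.3 in the mutant list and nothing in the WT list. Jup (plakoglobin, which binds the cadherin tail) was the 1 of 6 adherens junction partners to differ, with H3K4me3 at 12.3 and Menin at 9.97 in the mutant list alone.

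Among the mesenchymal effectors, Mmp2 (a matrix protease, 15.9) and Acta2 (smooth muscle actin, 7.06) had H3K4me3 in the mutant list alone. Of 14 partners and corepressors, 13 had H3K4me3 in each line, and TFAP2A was at 13 in the mutant list and 10 in the WT list, with Snai3 (5.94), Prrx1 (4.24) and Tcf4 (6.79, an E protein that pairs with the TWIST factors) added. Menin was at Tcf3 (5.40) and Tcf12 (11.7), which encode further E proteins, in the mutant list alone. Of 8 genes of TGF-beta signalling, an inducer of the SNAI and ZEB factors, 7 had H3K4me3 in each line, and Menin was at 7 in the mutant list and 5 in the WT list, with Smad2 and Tgfb1 added (5.97 each). Over the 60 genes Menin was at 30 in the mutant list and 23 in the WT list (37.9% of all genes in the mutant list and 31.6% in the WT list), and TFAP2A at 30 in the mutant list and 26 in the WT list (34% of all genes in the mutant list and 24.6% in the WT list). UTX was at 10 in the mutant list (8.86% of all genes) and 13 in the WT list (11.1%). ARID1A was at 15 in each, against 20.9% of all genes in the mutant list and 15.7% in the WT list. Itga5 (Menin) and Mmp14 (TFAP2A, 5.01) were the remaining genes with a Menin or TFAP2A call in the mutant list alone. Such mutant-only calls were at 7 of the 60 genes for Menin, against 8.28% of all genes. For TFAP2A they were at 4 of the 60, against 10.6% of all genes. No gene of the 60 had Menin or TFAP2A in the WT list alone (1.92% of all genes for Menin and 1.2% for TFAP2A).

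Likeness of the gene-end pattern was measured over the 22 lists as 100% minus the mean difference in percentile, for the 6 genes with a gene-end peak in at least 5 lists. Vim was least like any other gene, with Mrgprf at 87.8% and H6pd at 86.0%, and Snai1 came next with Gna12 and Dact3 at 90.1% each. The nearest to Snai2 were Clhc1 and Rps27a (97.8%), to Twist1 Zfp335 (97.9%) and Ssb (97.4%), to Twist2 Gm52217 and Eef1akmt2 (98.0%), and to Cdh2 Tlk1 (98.3%) and Cops5 (98.0%). These values rest on lists with no peak at either gene as well as on lists with one, so genes with few peaks score high.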

How the data were processed

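Of 24 samples, 22 came with a peak list. Per the submitters' processing notes the authors aligned reads with Bowtie2 to mm10, called peaks with MACS2 and checked reads with FastQC and MultiQC; versions, settings and the control used in calling are not given in the sources used here. The deposited lists give for each peak a score, the fold enrichment at the summit (a linear ratio), −log10 p, −log10 q and the summit offset. The deposited score was 10 times the −log10 q cut to a whole number in 99.9% of peaks. The lowest −log10 q in a list was between 1.30 and 1.59, so no weaker site is listed.

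Peaks were read as 1-based mm10 intervals and set against the protein-coding genes of the RefSeq table for GRCm38.p6, which gives no strand; strand and starts came from the RefSeq promoter table. A gene-end peak touches the 1 kb around either end, and loci take 20 kb on each side. Peaks overlap if they share 1 bp. No replicate exists for any line and target, so values are described beside the share of all genes and no p-value is given. Depth was reconstructed from the deposited fold and −log10 p at summits, taking the shortest peak as fragment length. In units of 1000000 fragments it ran from 0.406 to 2.21 in mutant lists and from 0.862 to 1.20 in WT lists. For equal depth the deeper list was scaled down by the depth ratio and peaks under the lowest −log10 p of the other were dropped. Calls, overlaps and depth steps were tested on simulated data. Intervals are 95% Wilson intervals for counting error only.

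The 9 genes and the gene lists were chosen with earlier results of these data known. All 9 genes are named. Genes of the lists are named where H3K4me3, Menin or TFAP2A at a gene end differed between lines, except 1 gene that is not reported here; Epcam, Krt8, Krt18 and Grhl2, and the marker genes, were named after their values were seen or as markers. For each of the 9 with a gene-end peak in at least 5 lists, the 2 most similar genes are named. Scripts ran in Python 3.11.15 with pandas 2.3.3, NumPy 2.4.6, Matplotlib 3.10.9 and SciPy 1.17.1.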

Additional observations from a re-analysis of the deposited data

How the results depend on the processing

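Gene-end counts, locus counts and the shared percentage were recomputed 165 times under other settings, and 139 stayed within 1.5 times the main count or, for the percentage, within its interval. The gene-end counts of H3K4me3, Menin, TFAP2A and ARID1A did so under every setting tried, though the genes counted did not stay the same: with a window of 2.5 kb Snai1 gained WT H3K4me3 and Zeb1 gained mutant Menin and TFAP2A. Some of the 165 recounts could not move. At equal depth and at equal numbers of top peaks, only 1 list of each pair was cut, so the other kept its count. SOX10-T had 0 genes in every recount. With a window of 500 bp mutant SMARCC1 fell to 0 genes, mutant SOX10-U to 1, and WT UTX, WT SMARCC1 and WT KMT2D to 1 each. Another setting used annotated starts alone for the 5 genes with a listed start. It kept both ends of the rest, whose calls could not change. Under it, mutant SOX10-U, WT UTX, WT SMARCC1 and WT KMT2D had 1 each, since the Snai1 site lies past the far end. At a −log10 q of at least 5, mutant SMARCC1 had 0 genes, mutant SOX10-U 1, mutant TFAP2B 3 and WT SMARCC1 1. With equal numbers of top peaks, and with equal depth, WT SMARCC1 had 1. Without regions called in 15 or more libraries, mutant SMARCC1, mutant SOX10-U and WT SMARCC1 had 1 each, as Vim dropped out in each case. The shared percentage of mutant peaks was 78.2% at equal depth and 76.8% with the stricter −log10 q. Locus counts ran from 99 to 185 in the mutant lists and from 106 to 188 in the WT lists, with the mutant count the higher without SMARCC1 and BRD9 (132 in the mutant lists and 123 in the WT lists). Joining close peaks, leaving out Zeb2 and the single-locus counts of Zeb2 and Vim were chosen after seeing the data. No paired analysis was possible because each line and target has 1 library. Depth was lower in WT for all shared targets but SMARCC1, and its part in weak calls was not tested beyond the equal-depth counts.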
